A study of Mus musculus with 11 samples.

Results

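The transcripts described here are those of 10 genes of vascular inflammation and leukocyte adhesion: the cytokines Il1b, Il6 and Tnf, the receptor Il1r1 and its blocker Il1rn, the NF-κB inhibitor Nfkbia, and the adhesion molecules Icam1, Vcam1, Sele and Selp. The members were taken by gene symbol from a list, with all their probes, which gave 10 of the 36413 gene names and 11 of the 55681 probes on the array, with 2 probes for Vcam1. RNA came from the descending aorta of male C57BL/6 mice aged 20 months. Old nitrate treated mice had received 1 g/L sodium nitrate (NaNO3) in the drinking water for 8 weeks (5 arrays). The labels of the old control mice (6 arrays) give the agent as control and mark the arrays as a reanalysis of earlier samples, and the paper names an equal concentration of sodium chloride. Both groups were fed standard chow, and each array held the RNA of a separate mouse.

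An inflamed vessel wall recruits leukocytes in steps. Cytokines such as interleukin-1β and tumor necrosis factor act on endothelial and smooth muscle cells through receptors that release NF-κB from its inhibitor IκBα, which Nfkbia encodes. NF-κB then switches on adhesion molecules. E-selectin and P-selectin let leukocytes roll along the endothelium, and ICAM-1 and VCAM-1 bind leukocyte integrins for firm adhesion. VCAM-1 is also made by activated smooth muscle cells, and P-selectin is stored in endothelial cells and platelets.

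Arrays of this kind measure RNA with 60-base DNA probes, and the sequences below show which stretch of each transcript the adhesion and NF-κB results rest on. Positions are those in the files, on mouse build mm9. Both Vcam1 probes lie on the minus strand of chromosome 3, at chr3:115828953-115829012 (called the 5′ probe here, as it is nearer the start of the gene) and at chr3:115813216-115813275 (the 3′ probe), and 15797 bases separate their outer ends, so that they read different parts of the gene. The Icam1 probe lies at chr9:20832290-20832349 on the plus strand. The Nfkbia probe lies on the minus strand at chr12:56590945-56591440, a span of 496 bases for 60 probe bases. Of the 3′ Vcam1 probe the first 30 bases are printed, and the other probes are printed whole.
Vcam1, 5′ probe: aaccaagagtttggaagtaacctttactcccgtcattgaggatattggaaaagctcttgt
Vcam1, 3′ probe: tatatttttataggcaaatggtaaagaggt
Icam1: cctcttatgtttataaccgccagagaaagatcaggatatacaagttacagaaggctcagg
Nfkbia: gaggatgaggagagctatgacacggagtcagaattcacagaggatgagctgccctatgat

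The 75th percentile of the processed signal lay between 212.8 and 288.7 on the 11 arrays, and no spot was saturated. The mean Pearson correlation of an array with the others across detected probes was 0.985 for control 1 and 0.990 to 0.993 for the other arrays. The arrays sat on 3 slides, each holding both groups. All 6 controls lay in the same column of the slides and no nitrate array did. The labels also mark the controls as a reanalysis of earlier samples. Neither a column effect nor that origin can be told apart from the treatment. All 6 smooth muscle markers and all 12 endothelial markers were detected, and so were all 8 adipocyte markers. Detection asked that a spot be found and clearly brighter than background on 5 or more arrays within a group, and 23632 probes met this. A transcript was called at an unadjusted limma P value under 0.05 with a fold change above 1.2.

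Vcam1 was higher in old nitrate treated mice on both of its probes, by 1.33-fold and 1.43-fold. The other adhesion molecules measured above background, Icam1 and Selp, did not pass the test, nor did Nfkbia or Il1r1. Sele, Il1rn, Tnf, Il6 and Il1b were at or near background in these aortas, and for them no comparison of levels could be made. Of the 11 probes, 5 passed the detection rule (Nfkbia, Icam1, Selp and both of Vcam1). Of these 5, 2 were called, both higher, against 9.00% of all detected probes called in either direction and 4.16% called higher. With Benjamini-Hochberg adjustment at 0.05, no member probe was called, against 0.0127% (3 probes) of all detected probes. At an unadjusted limma P value under 0.05, the same 2 Vcam1 probes were the members that passed, against 14.4% of all detected probes.

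**Figure D1:**
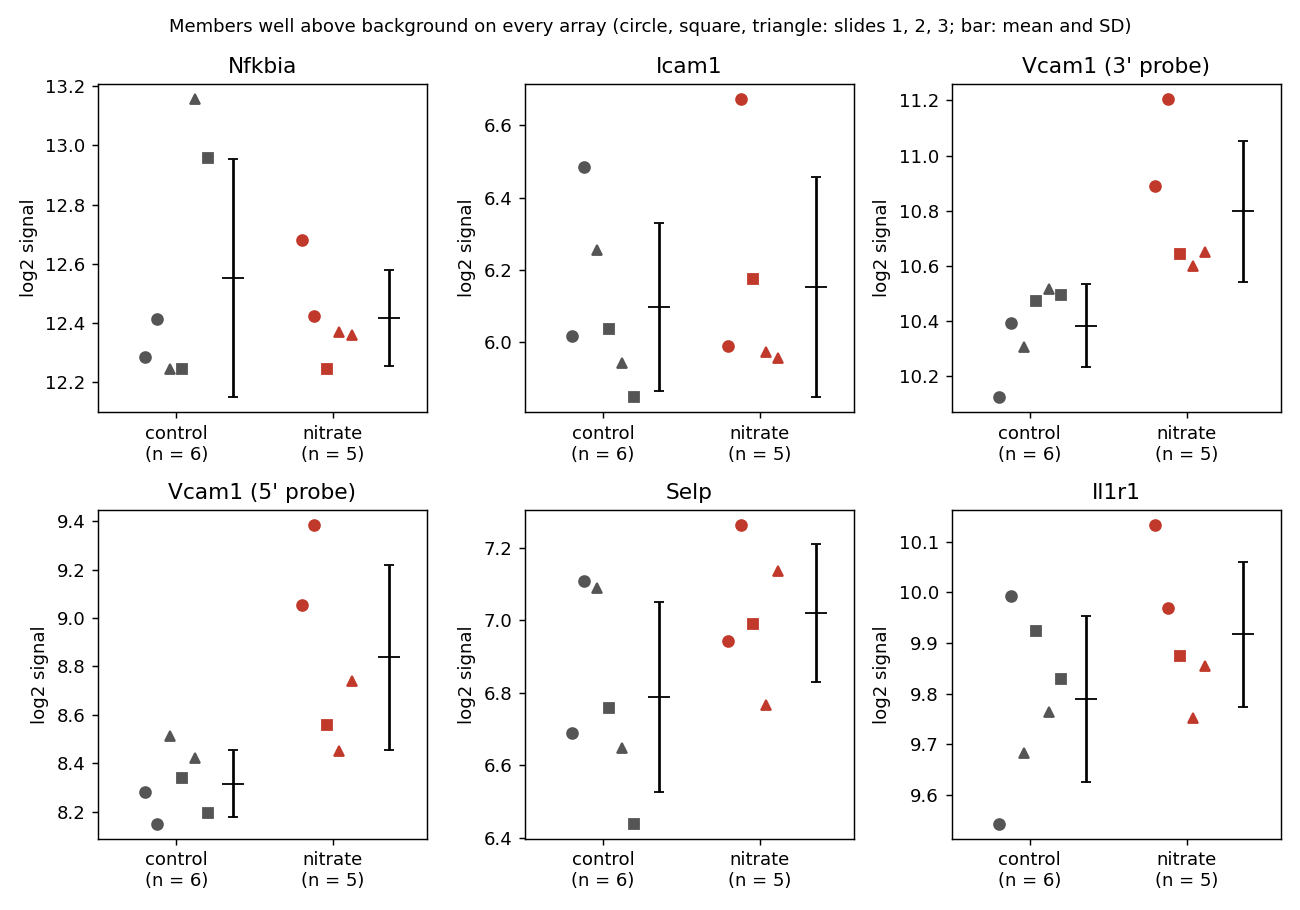
Normalized log2 signal of the 6 member probes that were well above background on every array, per mouse, in old control (grey, n = 6) and old nitrate treated mice (red, n = 5). Symbols mark the 3 slides, and bars give mean and SD. The 3′ probe of Vcam1 has all 5 nitrate values above all 6 control values, while for the other 5 probes the groups overlap.

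Vcam1 encodes the adhesion molecule that binds the integrin α4β1 of lymphocytes and monocytes. On its 3′ probe the normalized log2 signal was 10.89, 11.21, 10.64, 10.60 and 10.65 in nitrate treated mice 1 to 5. In the controls it ran from 10.12 to 10.52, with a median of 10.43. Every nitrate treated mouse was above every control, which held for 1.61% of all detected probes. Mice 1 and 2 were the highest of the treated group, and control 1 was the lowest of all.

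The mean log2 signal of that probe was 10.80 ± 0.26 (SD, n = 5) with nitrate and 10.38 ± 0.15 (SD, n = 6) in controls. The difference was 0.42 (SE 0.12, 95% interval 0.16 to 0.67), a fold change of 1.33 (95% interval 1.12 to 1.59). The limma P value was 0.00414 and 0.192 after adjustment over all detected probes. The exact permutation P value (two-sided) was 0.00216, the smallest that these numbers of mice can give. Without control 1 the difference was 0.36, with a limma P value of 0.00907.

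On the 5′ probe of Vcam1 the log2 signal was 9.05, 9.38, 8.56, 8.45 and 8.74 in nitrate treated mice 1 to 5. In the controls it ran from 8.15 to 8.51, with a median of 8.31. Here the groups overlapped, since nitrate treated mouse 4 was below control 3, the highest control. Mice 1 and 2 again had the highest values.

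The mean log2 signal of the 5′ probe was 8.84 ± 0.38 (SD, n = 5) with nitrate and 8.32 ± 0.14 (SD, n = 6) in controls. The difference was 0.52 (SE 0.15, 95% interval 0.19 to 0.85), or 1.43-fold (95% interval 1.14 to 1.81), with a limma P value of 0.00509, an adjusted P value of 0.200 and an exact permutation P value of 0.00433. Without control 1 the difference was 0.51, with a limma P value of 0.0105. Leaving out any single mouse kept the 3′ difference between 0.31 and 0.47 and the 5′ difference between 0.38 and 0.62. The lowest value of each came without nitrate treated mouse 2.

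The size of the Vcam1 difference varied with the slide. On slide 1, which held nitrate treated mice 1 and 2 and controls 1 and 2, it was 0.79 for the 3′ probe and 1.00 for the 5′ probe on the log2 scale. On slide 2 it was 0.16 and 0.29, and it rested there on nitrate treated mouse 3 alone, against controls 4 and 6. On slide 3, with nitrate treated mice 4 and 5 and controls 3 and 5, it was 0.21 and 0.13. It was above 0 on all 3 slides for both probes. With slide as a block the difference was 0.42 (limma P value of 0.00689) for the 3′ probe and 0.50 (limma P value of 0.00850) for the 5′ probe. Whether the difference varied between slides beyond chance was not tested.

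**Figure D2:**
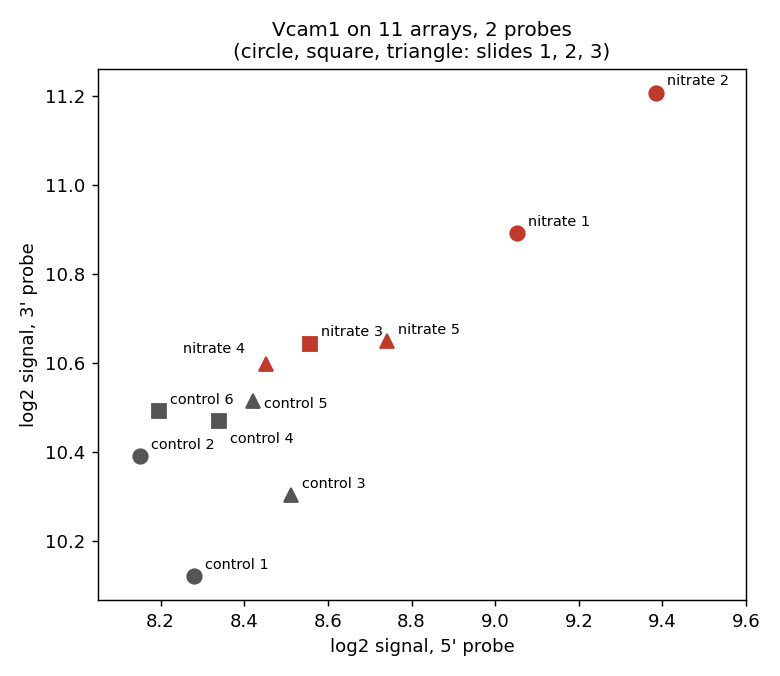
Log2 signal of Vcam1 on the 5′ probe (horizontal axis) and the 3′ probe (vertical axis) in each of the 11 mice, with nitrate in red, control in grey and the slide given by the symbol. Nitrate treated mice 1 and 2 lie farthest up and right (9.05 and 9.38 on the horizontal axis), and the other nitrate treated mice lie just above the controls.

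Over the 11 arrays the log2 signals of the 3′ and 5′ probes had a Pearson correlation of 0.88 and a Spearman correlation of 0.80, and 0.74 (Pearson) once each group's mean was taken out. Their orders differed among the controls, where control 3 was the highest on the 5′ probe and the lowest but 1 on the 3′ probe. These arrays share their slides and RNA between the probes, so the probes are repeated readings of 1 gene and not separate evidence on the treatment.

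Vcam1 was also set beside markers of cell types over all 11 arrays. In whole aorta fewer cells of a type and less RNA per cell cannot be told apart. Correlations with marker lists, here and below, pool both groups. They hold the difference between the groups as well as the variation among mice, and were not taken within groups. The summed signal of the 8 adipocyte markers ran from 240700 to 311800 in nitrate treated mice and from 311200 to 432100 in controls. Of these 8, 4 were called lower (Adipoq, Cfd, Retn and Lipe), against 4.85% of all detected probes, and all 8 had differences below 0, with a median of -0.38. The 3′ probe of Vcam1 had a Pearson correlation of -0.76 (Spearman -0.91) with the mean log2 signal of the adipocyte markers over the 11 arrays, and the 5′ probe one of -0.51. With the 6 smooth muscle markers, whose summed signal was 673100 to 705800 with nitrate and 536500 to 702600 in controls, the correlations were 0.78 for the 3′ probe and 0.58 for the 5′ probe. Of the smooth muscle markers, 1 was called, Lmod1, higher by 0.31, against 4.16% of all detected probes called higher. All 6 had differences above 0, with a median of 0.18. Smtn, at 0.26, had groups that did not overlap, as had 1.61% of all detected probes with nitrate higher. It stayed just under the fold limit (limma P value of 0.0474, exact permutation P value of 0.00433).

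With the 12 endothelial markers the 3′ and 5′ Vcam1 probes had correlations of -0.06 and 0.13, and of 0.16 and 0.24 without control 1. The summed endothelial signal overlapped between the groups, at 23900 to 27150 with nitrate and 22730 to 26860 in controls, and none of the 12 was called. Of the 5 B cell markers, Cd79b alone was detected, at a signal of 50.48 to 89.96 with nitrate and 86.05 to 225.4 in controls, and its correlation with the 3′ Vcam1 probe was -0.72. The macrophage sum (10 genes) was 8690 to 15180 with nitrate and 11370 to 13590 in controls, with a correlation of 0.09 (0.31 without control 1). The sum of the 6 general leukocyte markers was 1481 to 2350 with nitrate and 1840 to 2979 in controls. The 6 fibroblast markers all had differences above 0 but none was called, and their summed signal was 102100 to 128900 with nitrate and 95540 to 119400 in controls, with correlations of 0.66 (Spearman 0.58) for the 3′ probe and 0.45 for the 5′ probe. The summed signal of the 5 detected neutrophil markers was 30650 to 36030 with nitrate and 28880 to 36140 in controls. Their mean log2 signal was 8.36 to 8.52 with nitrate and 8.36 to 9.45 in controls, with correlations of -0.66 (Spearman -0.69) and -0.41. For the 5 brown adipocyte markers the correlations were -0.59 (Spearman -0.17) and -0.49, and for the 3 detected platelet markers 0.39 (Spearman 0.24) and 0.51. Without control 1 the correlations of the 3′ probe were -0.65 with the adipocyte, 0.79 with the smooth muscle, 0.51 with the fibroblast, -0.48 with the neutrophil, 0.69 with the platelet and -0.41 with the brown adipocyte markers, and -0.63 with Cd79b. The sum of the 6 cardiac muscle markers was 55200 in nitrate treated mouse 4 and 35180 in control 1, against 1733 to 8947 on the other 9 arrays. Without nitrate treated mouse 4 the Vcam1 differences were 0.47 (3′ probe) and 0.62 (5′ probe). The part of these cell types in the Vcam1 difference was not tested.

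Icam1, the ligand of the leukocyte β2 integrins, was low but above background on every array. Its log2 signal was 5.99, 6.67, 6.18, 5.97 and 5.96 in nitrate treated mice 1 to 5, and ran from 5.85 to 6.48 in controls with a median of 6.03. Nitrate treated mouse 2 and control 2, both on slide 1, were the highest of their groups, and the groups overlapped widely. The difference was 0.06 (SE 0.15, 95% interval -0.27 to 0.38), with a limma P value of 0.714, and it was -0.07 without nitrate treated mouse 2. The upper end of the interval, 0.38, lay below the differences of both Vcam1 probes. The interval overlapped those of Vcam1 (0.16 to 0.67 for the 3′ probe and 0.19 to 0.85 for the 5′ probe). Whether Vcam1 and Icam1 differed in response was not tested.

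Selp encodes P-selectin, which tethers rolling leukocytes and platelets. Its probe (chr1:166079660-166079719, plus strand) was spotted 10 times on each array. Its mean log2 signal was 6.94, 7.26, 6.99, 6.76 and 7.14 in nitrate treated mice 1 to 5, and ran from 6.44 to 7.11 in controls with a median of 6.72. The groups overlapped, with controls 2 and 3 inside the range of the treated mice.

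The Selp difference was 0.23 (SE 0.13, 95% interval -0.06 to 0.52), with a limma P value of 0.106 and an exact permutation P value of 0.136. It passed the unadjusted test when control 2 was left out (0.30, limma P value of 0.0418) or when control 3 was (0.29, limma P value of 0.0466). The 10 spots on an array had a median SD of 0.10 on the log2 scale, and the SD of array means within the groups, which holds labeling, hybridization and slide as well as the mice, was 0.23. The sum of the 3 detected platelet markers was 2404 to 3895 with nitrate and 2750 to 3336 in controls, and its mean log2 signal had a Pearson correlation of 0.16 with Selp. For the endothelial markers that correlation was 0.55. Without control 1 the Pearson correlations of Selp were 0.28 with the platelet and 0.73 with the endothelial markers.

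Sele, the endothelial E-selectin that appears on cytokine-activated endothelium, was not above background on any array. Its processed signal before normalization lay between 3.57 and 4.24 on all 11 arrays. On each of them Feature Extraction had put a surrogate, a value set from the background noise, in place of the spot's own signal. The lowest signal called well above background was 16.3 to 19.7, depending on the array. The Sele values therefore give no order among mice.

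Nfkbia, both an inhibitor and a target of NF-κB, had a log2 signal of 12.68, 12.43, 12.24, 12.37 and 12.36 in nitrate treated mice 1 to 5. In controls it ran from 12.24 to 13.16, with a median of 12.35. Controls 5 and 6 were the highest of all mice (13.16 and 12.96), and the other 4 controls lay within the range of the treated mice. The difference was -0.14 (SE 0.17, 95% interval -0.52 to 0.25), with a limma P value of 0.454. It was -0.01 without control 5 and -0.05 without control 6. The SD was 0.40 among controls and 0.16 among treated mice, and the difference in spread was not tested.

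The promoters of the members were searched for the κB consensus, the 10-base motif that NF-κB proteins bind, on both strands. The sequences are from RefSeq on build GRCm38.p6 and run from 250 bases before to 50 after each annotated start. The table held 12 promoters of 9 member genes, all but Vcam1. A match stood in 3 of the 12 promoters, each of another gene, so in 3 of 9 genes. Of all 32851 promoters 8.46% held one, and of their 27025 genes 9.55%. The windows are printed 5′ to 3′ on the strand of the gene, with the matched bases in capitals, to show each site's letters and distance. In Il6 the motif matched on the strand of the gene. In Nfkbia and Il1r1 it matched on the opposite strand, so the capitals there are the reverse complement of the matched motif. They lie at chr12:55492648-55492696 (Nfkbia, minus strand), chr5:30013050-30013099 (Il6, plus strand) and chr1:40266336-40266383 (Il1r1, plus strand).
Nfkbia: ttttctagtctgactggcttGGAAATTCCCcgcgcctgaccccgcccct
Il6: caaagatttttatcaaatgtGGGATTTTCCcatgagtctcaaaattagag
Il1r1: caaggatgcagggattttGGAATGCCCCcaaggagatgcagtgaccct

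The match ran from 29 to 20 bases before the start in Nfkbia, from 44 to 35 in Il6 and from 232 to 223 in Il1r1. In these aortas the 3 genes stood at different places in the data. Nfkbia was bright in every mouse, Il1r1 was above background in every mouse, and Il6 was above background in 1. A match describes letters in the window and not binding.

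Il1r1, the signaling receptor of interleukin-1, had a probe (chr1:40372667-40372726, plus strand) that gave a clear signal in all 11 mice. Its spot was marked as found on 4 arrays of each group, so it fell outside the detection rule and its values come from a fit over all probes. The log2 signal was 10.13, 9.97, 9.88, 9.75 and 9.86 in nitrate treated mice 1 to 5. In controls it ran from 9.54 to 9.99, with a median of 9.80. The groups overlapped over most of their range, and control 1 was again the lowest.

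For Il1r1 the difference was 0.13 (SE 0.09, 95% interval -0.08 to 0.34), with a limma P value of 0.205 and an exact permutation P value of 0.214. It was 0.08 without control 1 and 0.07 without nitrate treated mouse 1. Its log2 signal had a Pearson correlation of 0.82 (Spearman 0.72) with the smooth muscle markers and of -0.79 (Spearman -0.56) with the adipocyte markers over the 11 arrays. Without control 1, which had the lowest Il1r1 and smooth muscle values and the highest mean log2 signal of adipocyte markers, these were 0.73 and -0.67 (Pearson). With the 3′ probe of Vcam1 the correlation was 0.69, and with the 5′ probe 0.47.

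Il1b encodes interleukin-1β, made mainly by monocytes and macrophages. Its probe (chr2:129190347-129190406, minus strand) was spotted 10 times, and 15 of 110 spots were well above background. These lay on 4 arrays, where the mean processed signal before normalization was 24.3 (nitrate treated mouse 2), 19.6 (control 1), 24.8 (control 2) and 16.5 (control 3). On control 2, 7 of the 10 spots were above background, against 4 or fewer on each other array. The mean signal was 12.2 and 15.6 in nitrate treated mice 3 and 5, and under 10 on the remaining 5 arrays. The brightest Il1b arrays thus came from both groups.

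On the log2 scale the SD among the 10 Il1b spots of an array had a median of 0.28, and the SD of array means within the groups was 1.04. For Tnf, also spotted 10 times, these were 0.54 and 0.32. The SD between arrays holds labeling, hybridization and slide as well as the mice. Many of the low spots of Il1b held a surrogate value, up to 8 of 10 on control 6, so the lower end of this range is set by the noise limit of the array. With both groups mostly below background, no fold change is given.

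Il1rn encodes the interleukin-1 receptor antagonist, which occupies the receptor without signaling. Its single spot (chr2:24205094-24205153, plus strand) was not well above background on any array. The processed signal was 5.98, 5.39, 8.30, 20.5 and 14.8 in nitrate treated mice 1 to 5, and ran from 4.47 to 17.7 in controls with control 5 the highest. The values of nitrate treated mice 4 and 5 and of control 5, all on slide 3, were the highest 3. Control 3, on the same slide, held a surrogate value.

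Tnf, the other early cytokine of the NF-κB response, had 10 spots on each array (chr17:35336795-35336854, minus strand). The median of its spots was between 4.17 and 7.57 on the 11 arrays, and no array passed as above background. Single spots reached 37.0 in nitrate treated mouse 2 and 38.6 in nitrate treated mouse 4, while the highest spot of the controls read 15.2. Once spots flagged as outliers were left out, 1 of 110 spots was well above background. On nitrate treated mouse 4, 2 of the 10 spots had been well above background with flagged spots counted, and on nitrate treated mouse 2 it was 1 of 10.

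Il6 had 2 spots on each array (chr5:30346367-30346426, plus strand). In control 2 they read 17.8 and 29.7, and 1 of them was well above background. On the other 10 arrays both spots held surrogate values, between 3.85 and 4.83. Il6 was thus measurable in 1 of 11 mice, and control 2 was also the brightest control for Il1b and Icam1.

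**Figure D3:**
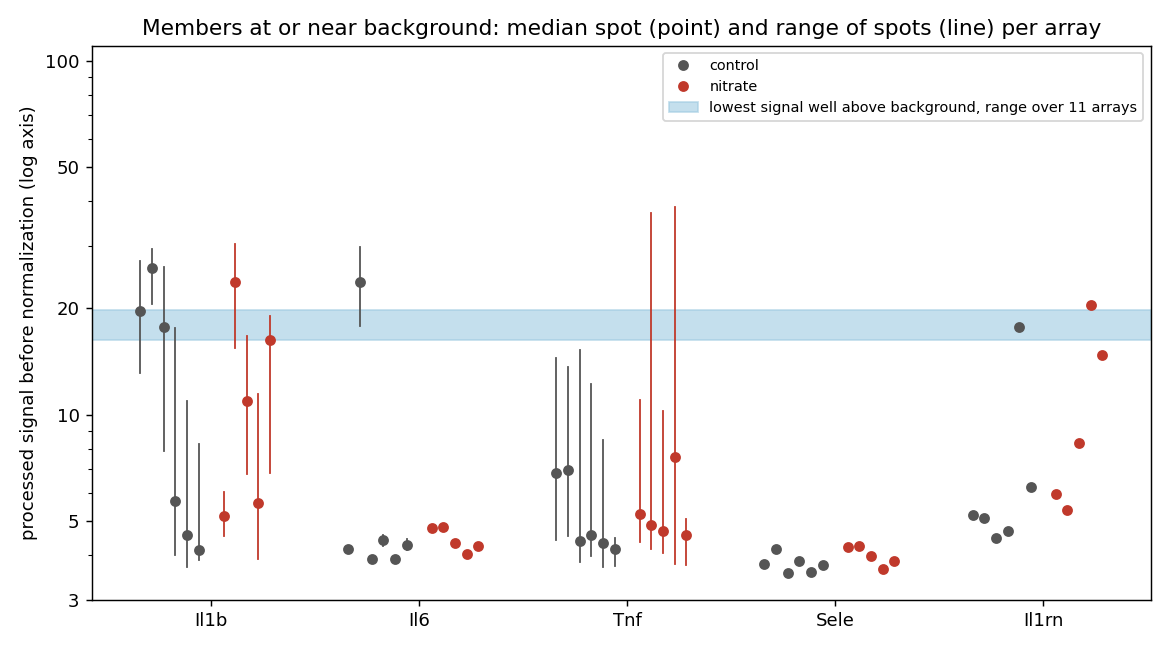
Processed signal before normalization (log axis) of Il1b, Il6, Tnf, Sele and Il1rn on each array in replicate order, controls in grey and nitrate in red, with the median spot as a point and the range of spots as a line. The blue band, 16.3 to 19.7, is the range over the arrays of the lowest signal called well above background. Il6 leaves the floor on the array of control 2, and Sele stays between 3.57 and 4.24.

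**Figure D4:**
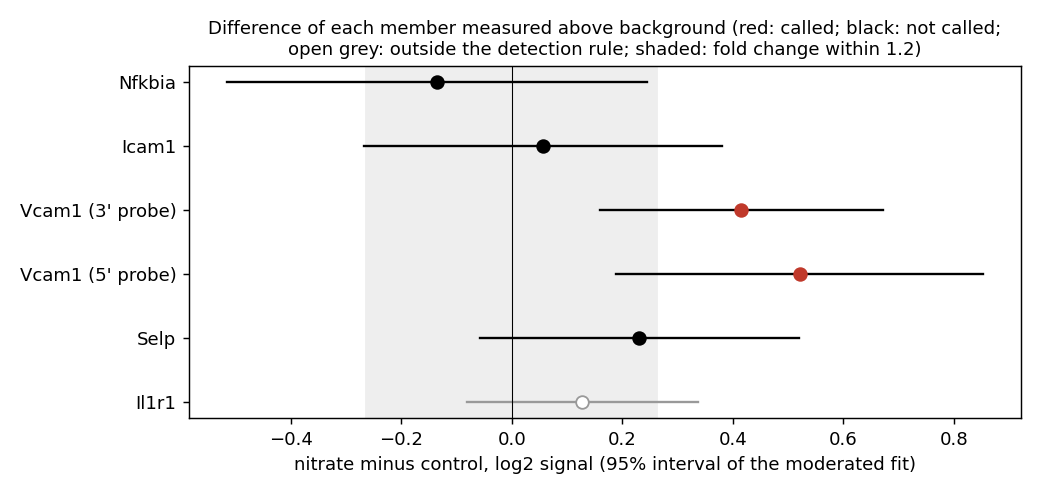
Difference in mean log2 signal, nitrate minus control, for the 6 probes measured above background, with the 95% interval of the limma fit. The shaded band is a fold change within 1.2, and the Vcam1 intervals (0.16 to 0.67 and 0.19 to 0.85) are the ones that leave out 0.

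Among the measured members, mice did not rank alike on all genes. Over the 11 arrays Icam1 and Selp had a Pearson correlation of 0.76 (Spearman 0.67), and 0.81 within groups. Selp had correlations of 0.46 and 0.61 with the 3′ and 5′ Vcam1 probes, which within groups were 0.18 and 0.43. Icam1 had 0.38 and 0.41 with these probes, but Spearman values of -0.06 and 0.19, and 0.45 and 0.48 within groups (Pearson). Nfkbia had Pearson values of -0.38 with Icam1, -0.54 with Selp, 0.12 with the 3′ Vcam1 probe and -0.07 with the 5′ probe. Within groups these were -0.37, -0.50, 0.45 and 0.14. These are descriptions over 11 arrays that share slides and normalization.

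Of all detected probes with a gene symbol (15471), those most like the 3′ Vcam1 probe over the 11 arrays were Ifngr2, a chain of the interferon-γ receptor (Pearson 0.96), Ikbip (0.95) and Tbc1d1 (0.95). Those most like the 5′ probe were Gusb (0.93), Arl16 (0.93) and Tmem30a (0.93). Selp was followed most closely by Tyk2, a Janus kinase of cytokine receptors (0.92), Irx3 (0.91) and Cwf19l2 (0.91), Icam1 by the early response factor Egr2 (0.85), Rpap2 (0.85) and Nprl3 (0.84), and Nfkbia by Dnmbp (0.97), Gpatch4 (0.87) and Fbxo39 (0.87). These genes were picked as the highest of all those probes, and no gene stood among the first 3 of more than 1 member probe.

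The wider pathways around the members were read from 5 lists with 88 genes, of which 72 were detected. None was called higher and 3 were called lower (4.17% of the 72), against 4.85% of all detected probes called lower. With no fold limit, 7 of the 72 (9.72%) had an unadjusted limma P value under 0.05, 3 higher (Cyld, Jam3 and Cd34) and 4 lower (Jak1 besides the called genes), against 14.4% of all detected probes. The shares called were thus no larger than over all probes. The median difference over the 72 genes was 0.02 on the log2 scale, against 0.01 over all detected probes. The NF-κB list had 18 of 21 genes detected and none called, with differences from -0.28 to 0.22. Its subunits Rela (0.09), Nfkb1 (-0.09) and Nfkb2 (-0.05) did not pass the test, nor did the kinase subunits Chuk (0.09) and Ikbkb (0.03) that act on IκBα. The list of interleukin-1 family signaling had 16 of 20 genes detected and none called. Among them, the adaptor Myd88 had a difference of -0.11, and Casp1, the protease that matures interleukin-1β, one of -0.10.

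Of tumor necrosis factor and interleukin-6 signaling, 14 of 17 genes were detected and 2 were called lower. Il6ra, the receptor chain that binds interleukin-6, had a log2 signal of 10.07 ± 0.26 (SD, n = 5) with nitrate and 10.35 ± 0.08 (SD, n = 6) in controls. Its difference was -0.27, with a limma P value of 0.0262 (adjusted 0.299) and an exact permutation P value of 0.00866. Socs3, an inhibitor of the same pathway and one of its targets, was at 8.53 ± 0.14 (SD, n = 5) and 8.88 ± 0.26 (SD, n = 6). This was a difference of -0.35, with a limma P value of 0.0162 (adjusted 0.271) and an exact permutation P value of 0.0238. The shared receptor chain Il6st had a difference of 0.12 and did not pass the test. The kinase Jak1, which acts downstream of Il6st, had a difference of -0.16 with groups that did not overlap (exact permutation P value of 0.00433) and stayed under the fold limit. Groups did not overlap, with nitrate lower, for 1.14% of all detected probes. The tumor necrosis factor receptors Tnfrsf1a (0.13) and Tnfrsf1b (-0.09) did not pass it either.

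Of the 16 leukocyte ligands of adhesion molecules, 12 were detected and 1 was called. This was Itgb7, which pairs with the α4 integrin chain, at 6.73 ± 0.29 (SD, n = 5) with nitrate and 7.23 ± 0.26 (SD, n = 6) in controls. It differed by -0.49, with a limma P value of 0.00744 (adjusted 0.219) and an exact permutation P value of 0.0238. The chains of the main VCAM-1 ligand, Itga4 and Itgb1, had differences of 0.02 and 0.24, with exact permutation P values of 0.937 and 0.0628. The P-selectin ligand Selplg had a difference of -0.30 (exact permutation P value of 0.0931), and the β2 chain Itgb2, shared by the ICAM-1 ligands, one of -0.03. Of the 14 junctional and other adhesion molecules, 12 were detected and none was called, with differences from -0.20 (Cdh5, VE-cadherin) to 0.21 (Jam3, whose groups did not overlap either).

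**Figure D5:**
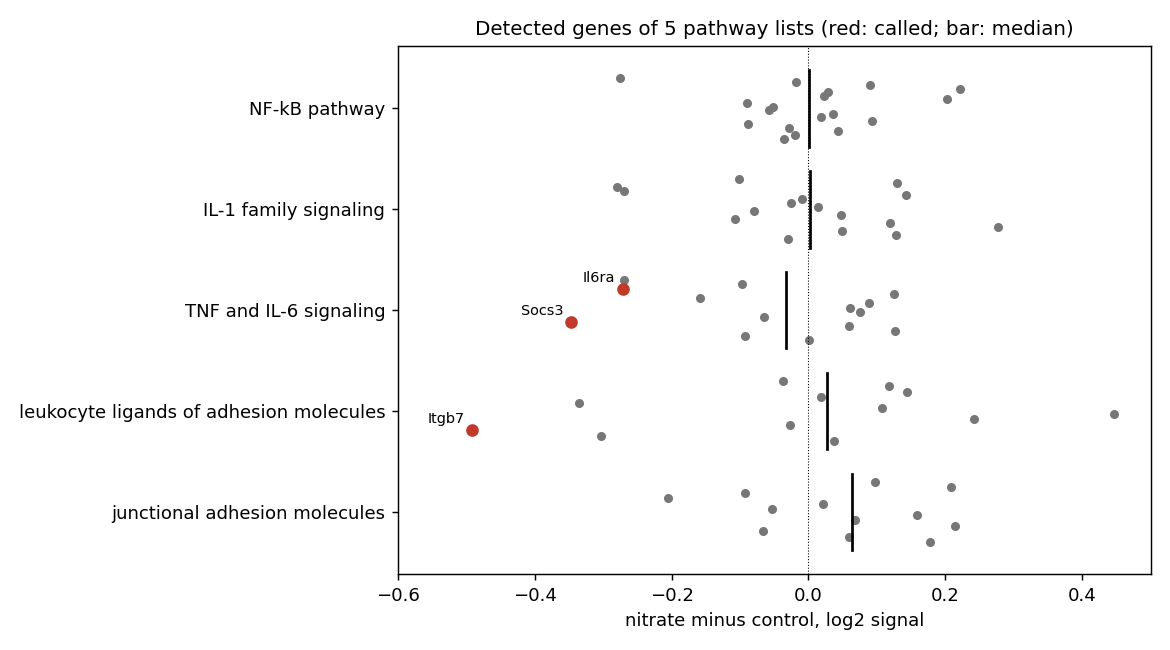
Difference in mean log2 signal, nitrate minus control, of each detected gene of the 5 pathway lists, with called genes in red and the list median as a bar. The 3 called genes, Itgb7 (-0.49), Socs3 (-0.35) and Il6ra (-0.27), lie below 0, and the medians lie between -0.03 and 0.06.

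Of the leukocyte and platelet marker lists, 3 of 29 detected genes were called (10.3%), all lower with nitrate, against 4.85% of all detected probes called lower and 9.00% called in either direction. Cd2 of T cells had a difference of -0.73 (exact permutation P value of 0.00216, adjusted limma P value of 0.0940), and the other 3 detected T cell markers, Cd3e (0.01), Cd3d (-0.09) and Cd5 (0.07), were not called. Cd79b of B cells had one of -0.81 (exact permutation P value of 0.0195, adjusted limma P value of 0.221). S100a9 of neutrophils had one of -0.88, with an SD of 0.99 among controls, and its exact permutation P value of 0.0606 did not pass. The other 4 detected neutrophil markers were not called, with differences of -0.70 (S100a8, the partner of S100a9), -0.05 (Camp), 0.04 (Elane) and 0.02 (Csf3r). None of the 3 passed the adjusted threshold of 0.05. In the general leukocyte, macrophage and platelet lists no gene was called. Cidea of brown adipocytes was called lower, with a difference of -0.52, and the other 4 genes of that list, which were not called, had differences of 0.23 (Ucp1), 0.23 (Elovl3), -0.15 (Cpt1b) and -0.15 (Ppargc1a). None of the fibroblast, erythrocyte or cardiac muscle markers was called.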

How the data were processed

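One-color Agilent SurePrint G3 Mouse GE 8x60K arrays of 5 old nitrate treated and 6 old control mice were analysed, grouped by the sample labels. The authors deposited spot intensities, background-subtracted by Feature Extraction 10.7.1.1 and not normalized between arrays, with quality flags, and a quantile normalized table of log2 values with the median of all samples as baseline, used as an alternative. Starting from the processed signal, values under 1 were set to 1 before taking log2. Controls and spots with an outlier flag were dropped, repeated spots of a probe averaged, and quantile normalization was run across all 11 mice. Values are relative to the whole array, and their precision is limited by the number of mice.

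Groups were compared with lmFit and eBayes (limma 3.58.1, R 4.3.3) over the 23632 detected probes, with Benjamini-Hochberg adjustment over all of them, and single probes also by exact permutation over all 462 divisions of the mice. Probes outside the detection rule have values from a fit over all probes. List genes were represented by their brightest detected probe. The fit was tested on simulated data.

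Members and lists were chosen with earlier results of these data known. Named genes are all members, up to 4 called genes of each pathway or marker list with the largest differences, and the 3 symbols most correlated with each detected member. Other list genes (such as Rela, Itga4, Il6st, Jak1, Cd3e and S100a8) were named for their role, after their values were seen. Alternatives changed the scaling between arrays, the background correction, an added offset, the use of the authors' log2 table, how detection was set, flagged spots, the variance prior, blocks (slide, row, replicate number), the threshold and, for detection without the found flag, a rule chosen after seeing the data, besides leaving out each mouse.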

Additional observations from a re-analysis of the deposited data

Results flagged for a closer look

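Of 22 groups of values tested for a single far sample (11 probes in 2 groups), 1 was singled out, and chance alone gives about 1.1. It was Il6 in the control group, where control 2 lay above the nearest other control by 0.937 of the whole range of the group. Both Il6 spots of that array read above the floor, at 17.8 and 29.7, and 1 of the 2 was well above background, while the other 5 controls held surrogate values. Whether this array differed in RNA, handling or state of the mouse was not tested.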

How the results depend on the processing

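Both Vcam1 differences stayed above 0 in 26 alternatives, between 0.31 and 0.47 for the 3′ probe and 0.38 and 0.62 for the 5′ probe. Some of these cannot change the difference: the permutation test, the adjustment, the variance prior and the detection rules. The replicate block gave the same differences as leaving out control 6. Both probes lost their call under Benjamini-Hochberg adjustment, with adjusted P values of 0.192 and 0.200 (0.150 to 0.596 and 0.154 to 0.568 over the alternatives). Under that adjustment 0 member probes and 3 transcripts were called, against 2 and 2128. The number of transcripts called was 1218 with normexp background correction and its offset of 50 together, 3224 without a filter on dim probes and 3394 with no fold limit. Leaving out each mouse gave 1596 (without control 1) to 2424 (without control 6) transcripts and 2 to 3 member probes, the added one being Selp without control 2 or control 3. The replicate numbers do not pair the mice: same-numbered arrays had correlations of deviations between -0.14 and 0.18, and 1 of 5 treated mice correlated best with its own number. With the replicate block, which also leaves out control 6, 2433 transcripts and 2 member probes were called. Detection without asking that a spot be found, chosen after seeing the data, gave 2392 transcripts and the same 2 member probes, with Il1r1 then inside the rule (limma P value of 0.206). Signal over background limits Sele, Il1rn, Tnf, Il6 and Il1b, for which a difference was not detectable here.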
